A study of Homo sapiens with 12 samples.

Results

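The comparison described here is of U2OS cells that express wild-type E2F1 (WT) with U2OS cells that carry the empty expression vector (pTRE). U2OS is a human osteosarcoma line, and both cell lines were made from its Tet-On form, in which doxycycline switches on a gene placed behind the pTRE promoter. The members are the 3 WT and the 3 pTRE samples, 6 of the 12 RNA sequencing (RNA-seq) samples of the study. The other 6 samples come from lines with arginine mutants of E2F1, R109K and KK (R111 and R113 changed to lysine), and they enter here through the shared statistical model and a direct test of each mutant line against WT. All samples, the pTRE controls included, were taken after 24 hours with doxycycline at 1 μg/ml, and the lines were grown under hygromycin and G418 selection. The WT construct encodes hemagglutinin-tagged human E2F1. Only 1 line stands for each construct, and whether a line is a single clone or a pool is not given in the sources used here, so an effect of E2F1 and a difference between the lines cannot be told apart. The replicates are biological replicates of a line, so p-values measure the spread between samples within a line, estimated over all 4 lines together.

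E2F1 is a transcription factor that binds DNA together with a DP protein and drives genes needed for entry into and passage through S phase. In quiescent and early G1 cells it is held by the retinoblastoma protein, and phosphorylation of that protein by cyclin-dependent kinases releases it. E2F1 is also known for inducing genes of cell death, among them TP73 and those of the apoptosome. Bulk RNA-seq cannot tell a change in the share of cells at a stage of the cell cycle from a change in RNA per cell.

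Levels are given as CPM, read counts scaled to a common library size, here the reads on genes after TMM normalization. CPM does not take gene length into account, so levels are compared between samples and not between genes. Values in pTRE and WT are listed in the order of replicates 1, 2, and 3. E2F1, the induced gene, on the minus strand of chromosome 20 (chr20:32263283-32274191, GRCh37), stood at 89.2, 82.9, and 101 CPM in pTRE and at 2315, 1650, and 1469 CPM in WT. Every WT sample lay far above every pTRE sample, a 19.9-fold difference (log2 fold change 4.31, standard error 0.18, adjusted p = 3.62e-09 from edgeR). These reads come from the cells' own gene and from the construct together.

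The promoters shown next are the 250 bases before the start of the canonical transcript, 5′ to 3′ on the gene's own strand, in GRCh37. They were chosen because they hold an E2F site, to show it as it occurs in genes of this comparison. Such a site was about as frequent in promoters of up-regulated genes (4.17%) as in those of all tested genes (4.14%). E2F1 is the gene of the construct, whose expression there runs from the pTRE promoter and not from the one shown. HS6ST3 and IKZF1 are those among the 15 largest rises that hold a site, and SYNE2 is an abundant transcript that rose and holds a site. Capitals mark an exact match to TTTCCCGC, TTTCGCGC, TTTGCCGC, or TTTGGCGC on either strand.
E2F1: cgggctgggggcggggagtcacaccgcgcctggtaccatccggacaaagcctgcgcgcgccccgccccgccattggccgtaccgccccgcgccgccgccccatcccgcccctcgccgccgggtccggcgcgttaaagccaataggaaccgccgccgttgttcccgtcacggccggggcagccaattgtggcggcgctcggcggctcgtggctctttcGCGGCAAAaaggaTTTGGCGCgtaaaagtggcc
HS6ST3: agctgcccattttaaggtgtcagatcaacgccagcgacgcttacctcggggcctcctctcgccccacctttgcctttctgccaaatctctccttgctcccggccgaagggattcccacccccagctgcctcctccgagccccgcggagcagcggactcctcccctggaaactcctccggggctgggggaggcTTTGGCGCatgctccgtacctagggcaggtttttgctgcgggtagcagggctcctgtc
IKZF1: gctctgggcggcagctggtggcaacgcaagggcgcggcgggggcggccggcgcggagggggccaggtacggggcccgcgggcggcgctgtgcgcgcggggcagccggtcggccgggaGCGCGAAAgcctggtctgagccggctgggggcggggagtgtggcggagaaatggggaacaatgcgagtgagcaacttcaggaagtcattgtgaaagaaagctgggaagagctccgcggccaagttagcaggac
SYNE2: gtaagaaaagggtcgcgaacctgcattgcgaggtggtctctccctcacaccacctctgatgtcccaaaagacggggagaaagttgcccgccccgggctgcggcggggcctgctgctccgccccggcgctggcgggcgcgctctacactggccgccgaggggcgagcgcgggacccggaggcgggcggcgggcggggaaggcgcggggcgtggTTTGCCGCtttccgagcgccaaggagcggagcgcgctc
These windows are chr20:32274192-32274441 on the minus strand for E2F1, and, on the plus strand, chr13:96742111-96742360 for HS6ST3, chr7:50344062-50344311 for IKZF1, and chr14:64319472-64319721 for SYNE2. The E2F1 window holds 2 sites, whose first bases lie 33 and 20 bases before the start of transcription, and the others hold 1 site each, 58, 133, and 38 bases before it.

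At an adjusted p-value under 0.01, 2464 of the 16625 tested transcripts were higher in WT (14.8%) and 1898 were lower (11.4%). Counts of list members that rose or fell use this threshold, so these 2 shares are to be set beside each of them. A transcript is called regulated where its change was also greater than 2-fold. Of the regulated transcripts, 1311 were up-regulated (7.89% of those tested) and 653 were down-regulated (3.93%). Rises were not only more frequent but also steeper, as 196 of the up-regulated and 18 of the down-regulated transcripts changed by more than 3 on the log2 scale. The median log2 fold change of all tested transcripts was 0.002. Below 1 CPM in every pTRE sample and at or above it in every WT sample were 189 up-regulated transcripts, and the reverse held for 56 down-regulated ones. A gene near 0 in pTRE could rise steeply but hardly fall, so these counts depend on which genes near 0 were tested. With only transcripts of at least 10 counts in every sample, 1071 were up-regulated and 515 down-regulated. Rises were then 67.5% of regulated transcripts, beside 66.8% in the main fit, but steep changes were not counted with that filter. Together the up-regulated transcripts took 18847 to 19548 CPM in the pTRE samples and 58878, 69392, and 49086 CPM in the WT samples. These sums include E2F1 itself. They also include 5 transcripts, described below, that were high in WT replicate 2 alone. Those 5 took 9799 CPM there and at most 58.4 CPM in any other of the 6 samples. They count among the 1311 and the 196. The down-regulated ones took 37510 to 44536 CPM in pTRE and 14245, 13187, and 17757 CPM in WT. Replicates of the groups did not overlap for 1301 of the 1311 and 652 of the 653 transcripts, beside 51.5% of all tested transcripts. In direct tests between lines, 57 transcripts (0.343% of 16625) were regulated between WT and R109K and 1 (0.00602%) between WT and KK.

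**Figure D1:**
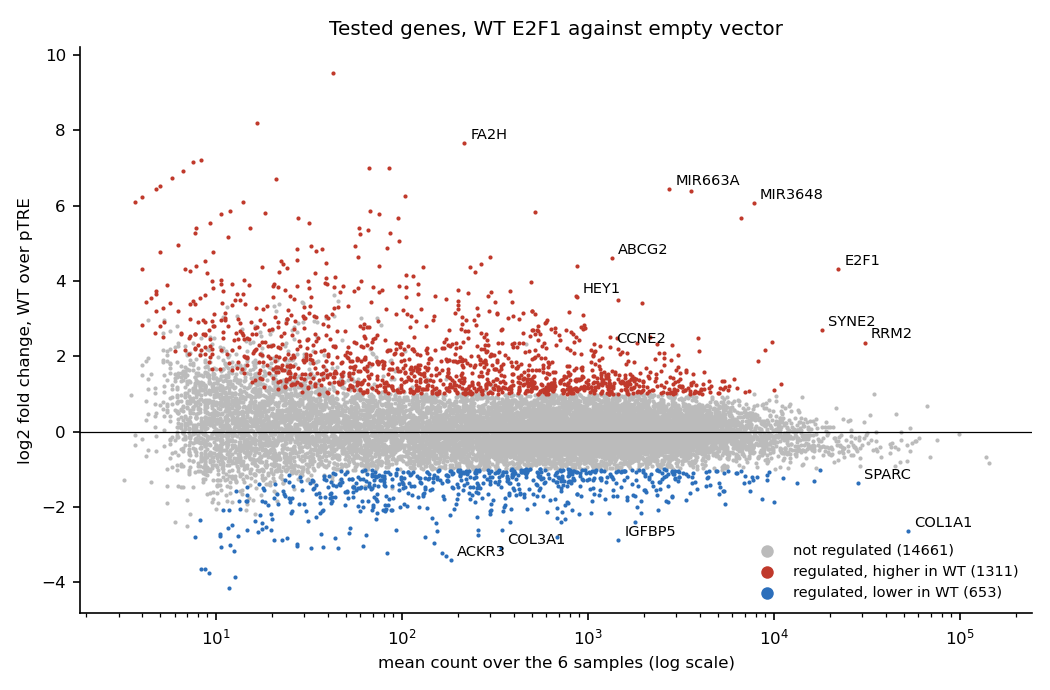
Each point is a tested transcript, with its mean count over the 6 samples on the x axis (log scale) and the log2 fold change of WT over pTRE on the y axis. The 1311 up-regulated transcripts (red) reach further from 0 than the 653 down-regulated ones (blue), COL1A1 is the most abundant of the labelled falls, and MIR3648 and MIR663A are high in WT replicate 2 alone.

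WT replicate 2 stood apart from the other samples. It had 11500537 reads on genes where the other 5 samples had 24253265 to 28276244, 58.7% of its reads fell outside annotated genes (at most 28.3% in the other 5), and the correlation of its log2 levels with WT replicates 1 and 3 was 0.969 and 0.968, beside 0.992 between those 2. Summed over the 398 olfactory receptor genes listed, which are not expected in bone tumor cells, it held 49.6 CPM, where the other 5 held 17.9 to 24.0. Without it, 2366 of 16823 tested transcripts were higher at the same adjusted p-value (14.1%) and 1700 lower (10.1%), and of these 1193 were up-regulated (7.09%) and 639 down-regulated (3.8%), and 1666 of the 1964 regulated transcripts (84.8%) were regulated in both fits. The direction of 5 transcripts turned: MIR3648, MIR3687, MIR663A, LOC284801, and ANKRD30BL were higher in WT with this sample and had negative log2 fold changes without it. MIR3648 and MIR3687 are annotated in ribosomal RNA repeat sequence. MIR3648 stood at 3587 CPM in WT replicate 2 and at 13.4 to 22.7 CPM in the other 5 samples, and its log2 fold change went from 6.07 to -0.28 when the sample was left out. For MIR663A the values were 1273 CPM against 3.45 to 5.58 CPM, and 6.44 became -0.41. These 5 transcripts were singled out after their values were seen. None is named as a result of E2F1 below, but they were not taken out of totals over all regulated transcripts. Among all regulated transcripts, 29 were more than 5 times higher in WT replicate 2 than in any other of the 6 samples, and 6 of these were regulated without it.

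**Figure D2:**
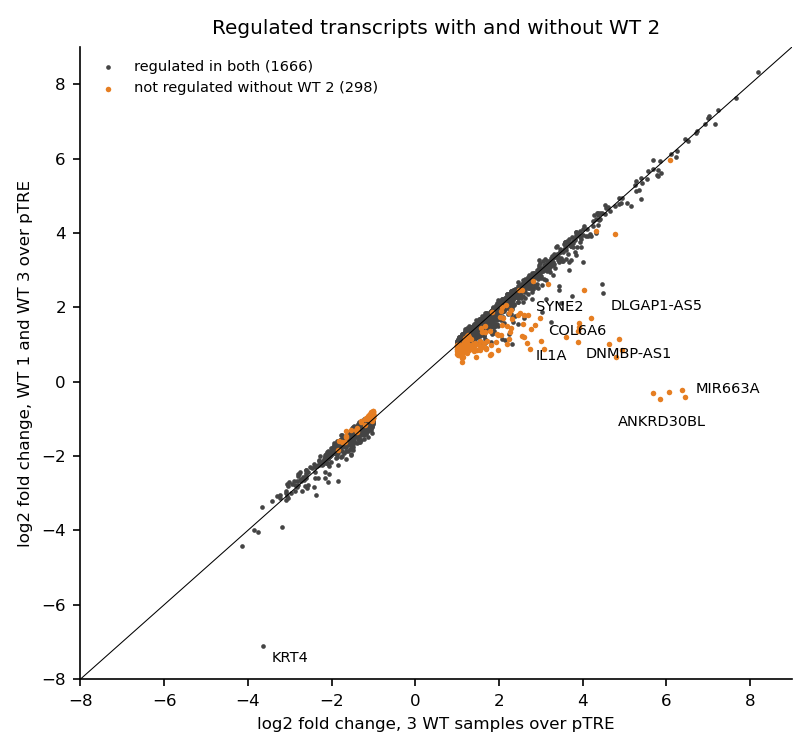
Each point is 1 of the 1964 regulated transcripts, with its log2 fold change from all 3 WT samples on the x axis and from WT replicates 1 and 3 on the y axis. The 1666 transcripts regulated in both (dark grey) follow the line of equal change, with KRT4, which had no read in WT replicates 1 and 3, far below it, and the 298 others (orange) include a group just below 0 on the y axis with MIR663A and ANKRD30BL.

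The 15 largest rises, among transcripts with a mean count of at least 50, no overlap of replicates, and a call that held without WT replicate 2, ran from 4.61 to 7.66 on the log2 scale, and all but IKZF1 and ABCG2 lay below 0.5 CPM in every pTRE sample. FA2H, the enzyme that makes 2-hydroxylated fatty acids for sphingolipids, stood at 0, 0.19, and 0.0735 CPM in pTRE and at 21.2, 19.9, and 16.3 CPM in WT. On the log2 scale the rise was 7.66 with a standard error of 0.55 (edgeR adjusted p = 1.08e-09). FGF4, a secreted growth factor of the early embryo, had 3 reads in the 3 pTRE samples together and 396 in WT, a ratio of 151 (95% exact interval 51.2 to 734, for counting error only). In CPM, FGF4 stood at 7.16, 4.58, and 4.99 in WT. TMEM155, now named SMIM43, had 4 reads in pTRE and 506 in WT, a ratio of 144 (56.1 to 532 by the same method). Every WT sample of these 3 genes was above every pTRE sample, as the rule of choice required.

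The other large rises span several kinds of genes. SPHKAP, a protein kinase A anchoring protein, had a log2 fold change of 6.25, and RELN, the secreted protein that guides migrating neurons, one of 5.87. GRIK3, a kainate-type glutamate receptor subunit, rose by 5.79. SHISA6 and SHISA7, which associate with AMPA and GABA receptors, rose by 5.42 and 5.06. CBLN2 and C1QL2, secreted proteins of the C1q family that organize synapses, rose by 5.28 and 4.87. PITX3, a homeodomain factor of dopamine neurons and the lens, rose by 5.24. All 8 lay between 3.47 and 11.8 CPM in the WT samples. The remaining rises were HS6ST3, a heparan sulfate sulfotransferase (5.67), and ZBTB8B, a zinc finger gene (5.34). IKZF1, the lymphoid transcription factor Ikaros, went from 1.03, 1.14, and 0.882 CPM to 31.2, 28.2, and 17.7 CPM (log2 fold change 4.65, standard error 0.27). ABCG2, a transporter that exports drugs from cells, was the most abundant of the 15 and went from 4.54, 4.29, and 4.7 CPM to 141, 94.4, and 94.9 CPM (log2 fold change 4.61, standard error 0.17, adjusted p = 1.08e-09 from edgeR).

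The 15 largest falls were smaller, from -3.42 to -2.64 on the log2 scale. ACKR3, a receptor that takes up the chemokine CXCL12, stood at 12.4, 14.9, and 12 CPM in pTRE and at 0.855, 0.642, and 1.95 CPM in WT. COL3A1 and COL1A1, chains of the fibrillar collagens III and I, fell by 3.10 and 2.65. For COL1A1 the values were 3312, 3280, and 4079 CPM in pTRE and 541, 550, and 611 CPM in WT, a 6.27-fold fall (standard error 0.14 on the log2 scale, adjusted p = 8.57e-09 from edgeR). No WT sample came near the pTRE range. LUM, the matrix proteoglycan lumican, and LRRC15, a membrane protein of matrix-producing cells, fell by 2.75 and 2.74. IGFBP5, which binds insulin-like growth factors, went from 111, 95.5, and 94.4 CPM to 8.65, 11.6, and 20.3 CPM. CLDN4, a tight-junction claudin, fell by 2.80, EDN2, the vasoconstrictor peptide endothelin 2, changed by -3.22, and ALPP, placental alkaline phosphatase, by -3.23. The others were HBD (delta globin), DEF6, CNTNAP2, FOLR1 (a folate receptor), HEPH (a copper-dependent ferroxidase), and RNF43 (a ubiquitin ligase that removes Wnt receptors). Beside HBD on chromosome 11, OR51B5 and OR51B4 also fell (-1.27 and -1.68), and the annotated HBE1 overlaps both, so how their reads were counted is uncertain.

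**Figure D3:**
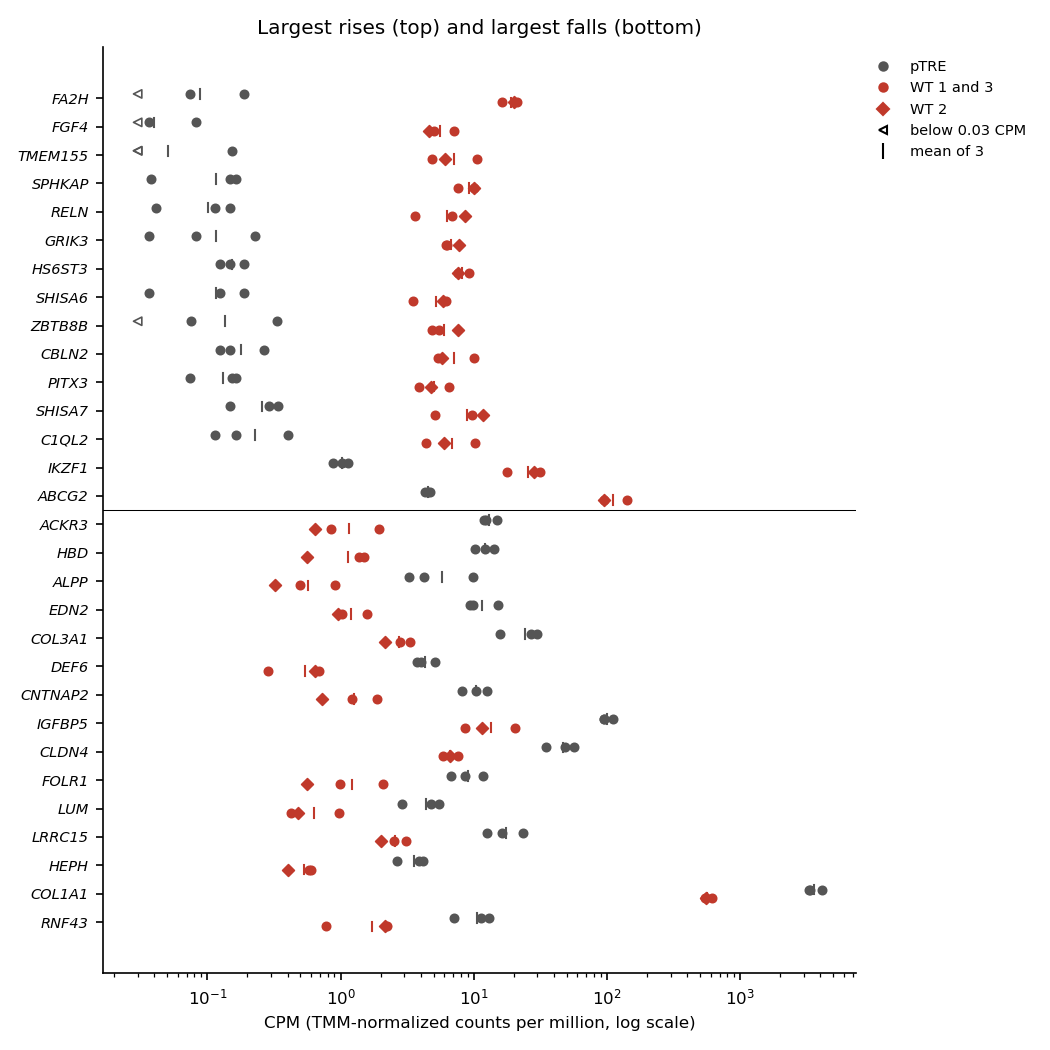
Each row is a gene and each point a sample, with CPM on the x axis (log scale), pTRE in grey, WT in red, WT replicate 2 as a diamond, open triangles for samples below 0.03 CPM, and a bar at the mean of 3 samples. The 30 genes were chosen for replicates that do not overlap, so all 3 WT samples lie on 1 side of all 3 pTRE samples. WT lies to the right for the upper 15 genes and to the left for the lower 15.

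Among abundant transcripts, the 8 up-regulated with the largest mean count were E2F1, RRM2, SYNE2, SLC16A1, SMCHD1, GLUD1, FAM111B, and FOXK1. RRM2, the small subunit of ribonucleotide reductase, stood at 434, 396, and 424 CPM in pTRE and at 2610, 1803, and 2050 CPM in WT (log2 fold change 2.37, standard error 0.13). GLUD1, glutamate dehydrogenase of the mitochondrion, had the same log2 fold change of 2.37, and FAM111B, a serine protease, one of 2.16. SYNE2, a giant protein that links the nucleus to the cytoskeleton, was at 1131, 2070, and 1209 CPM in WT and at 217 to 233 CPM in pTRE. FOXK1, a forkhead factor, was likewise highest in WT replicate 2, at 917 CPM beside 482 and 425. The log2 fold changes of SYNE2 and FOXK1 were 2.69 and 1.89 with that sample and 2.36 and 1.46 without it. SLC16A1, the lactate transporter MCT1, rose by 1.26, and SMCHD1, a chromatin protein of X inactivation, by 1.10. The 8 most abundant falls were COL1A1, SPARC, CLU, SERPINH1, CPA4, HSPB1, KRT80, and CAV1. SPARC, a collagen-binding matrix protein, went from 1664, 1387, and 1787 CPM to 650, 457, and 769 CPM, and SERPINH1, the collagen chaperone HSP47, fell by 1.37 on the log2 scale, as did SPARC. HSPB1, the small heat shock protein HSP27, fell by 1.86, and CAV1, the coat protein of caveolae, by 1.14.

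Of 10 tested members of the E2F family and its DP partners, 4 rose and 1 fell. These are 40% and 10%, beside 14.8% and 11.4% of all transcripts. E2F1 itself, which the construct supplies, is 1 of the 4. After E2F1, the largest rise was that of E2F7, a repressor of E2F target genes, which stood at 73, 73.9, and 63.5 CPM in pTRE and at 237, 216, and 200 CPM in WT (log2 fold change 1.63). E2F8, the other atypical repressor, rose by 1.08, and the activator E2F2 by 0.76. E2F5, a repressor that pairs with the pocket proteins, fell by 0.75. E2F3, E2F4, E2F6, and TFDP2 had overlapping replicates and log2 fold changes of -0.16, -0.24, -0.08, and 0.08. TFDP1, the main DP partner, was at 194, 190, and 203 CPM in pTRE and at 272, 222, and 257 CPM in WT, with an adjusted p of 0.0165 from edgeR that misses the threshold. TFDP3 was below the filter, at 0 to 0.107 CPM.

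Pocket proteins and subunits of the DREAM and MuvB complexes, through which E2F target genes are held off in resting cells, changed little, with 2 of 10 rising and 0 falling. LIN54, the DNA-binding subunit of MuvB, rose by 1.41, from 52.3, 52.1, and 46.9 CPM to 136, 153, and 114 CPM. RB1, the retinoblastoma gene, rose by 0.84 (adjusted p = 0.00397 from edgeR). RBL1 and RBL2, the genes of p107 and p130, had log2 fold changes of 0.14 and -0.21, and LIN9, LIN37, LIN52, and RBBP4 had changes of 0.27, -0.29, -0.25, and 0.00. MYBL2 and FOXM1, factors of late cell-cycle genes, had values of 0.17 and 0.32 (adjusted p = 0.257 and 0.028 from edgeR).

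Of 10 tested G1 and S phase cyclins, their kinases, and CDC25A, 4 rose (40%, beside 14.8% of all transcripts) and 1 fell (10%, beside 11.4%). CCNE2 and CCNE1, the E cyclins that activate CDK2 at the start of S phase, rose by 2.24 and 1.59. CCNE2 stood at 20.3, 18.8, and 18.8 CPM in pTRE and at 113, 75.6, and 83.4 CPM in WT. Among the D cyclins, which pair with CDK4 and CDK6, CCND3 rose by 2.08, CCND1 fell by 0.48, and CCND2 was at -0.50 on the log2 scale (edgeR adjusted p = 0.0103). CDC25A, the phosphatase that activates CDK2, rose by 1.00. CDK2, CDK4, and CDK6 had changes of 0.05, -0.44, and -0.18, none past the threshold, and CCNA2 one of 0.37 (adjusted p = 0.0268 from edgeR). CCNA1 was below the filter, and CDK3 had no read in the 6 samples.

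Genes of CDK inhibitors rose too. Of the 6 tested, 5 rose and 0 fell, beside 14.8% and 11.4% of all transcripts. CDKN2C, the gene of p18, which inhibits CDK4 and CDK6, stood at 42.3, 39.5, and 47.9 CPM in pTRE and at 200, 126, and 173 CPM in WT (log2 fold change 1.95, standard error 0.16). CDKN1C (p57) rose by 1.87, CDKN2D (p19) by 1.05, CDKN1B (p27) by 0.88, and CDKN1A (p21) by 0.67. CDKN3, a phosphatase that acts on CDK2, had a log2 fold change of 0.39 (adjusted p = 0.0472) and 0.53 without WT replicate 2 (adjusted p = 0.00515, both from edgeR). CDKN2A and CDKN2B were below the filter, with 1 read each over the 6 samples.

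**Figure D4:**
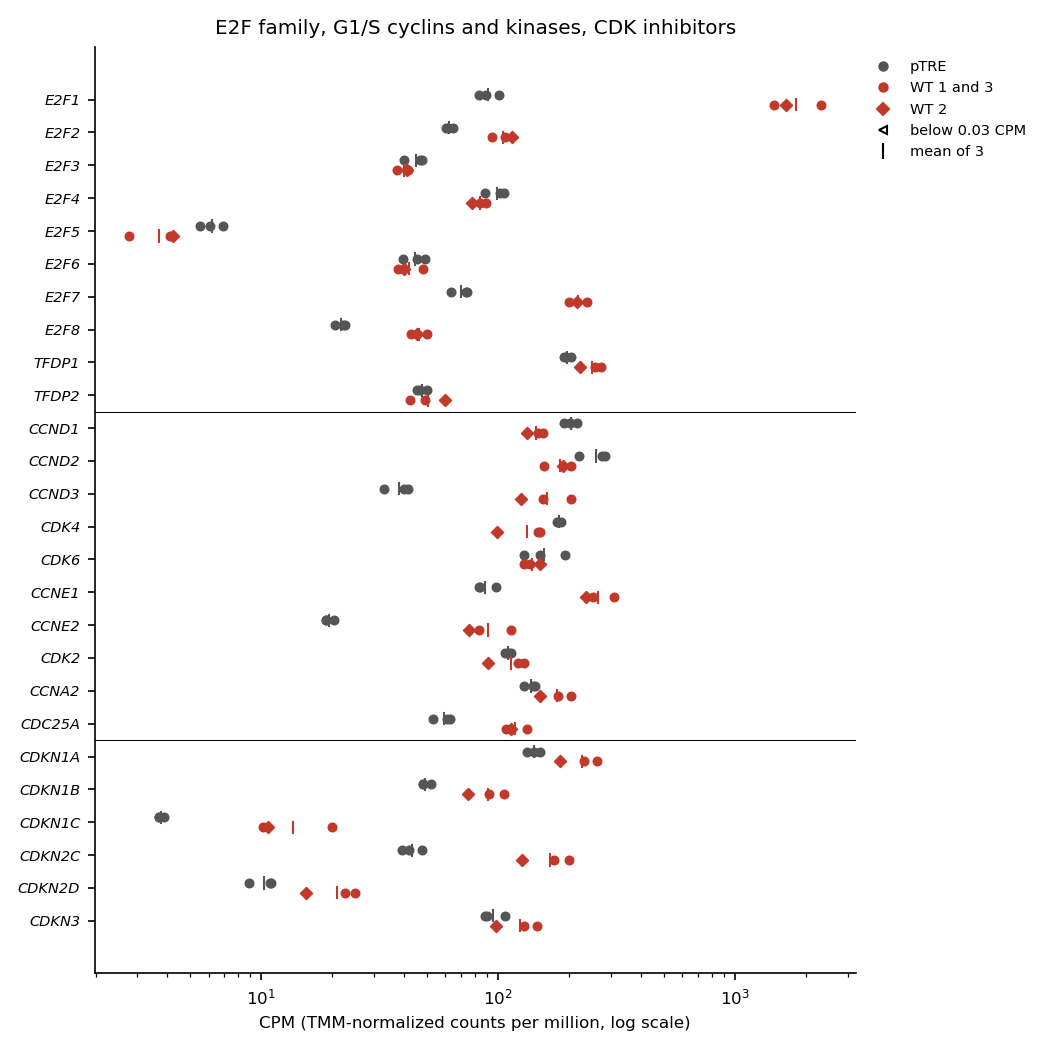
Rows are the tested members of 3 lists, from top to bottom the E2F family and DP partners, G1/S cyclins and kinases, and CDK inhibitors, with CPM of each sample on the x axis (log scale), pTRE in grey, WT in red, WT replicate 2 as a diamond, and a bar at the mean of 3 samples. E2F1, CCNE2, CCND3, and CDKN2C show WT samples far to the right of pTRE, while E2F3, CDK2, and CDK6 overlap.

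Genes of the replication machinery did not rise as a group. Of 52 tested members of the list of licensing and fork proteins, 4 rose and 6 fell, and the median log2 fold change was -0.10. POLE, the catalytic subunit of the leading-strand polymerase, rose by 1.09 (0.94 without WT replicate 2). DBF4, the activator of the CDC7 kinase, and MCM8 rose by 0.74 and 0.71. MCM5 and MCM6, subunits of the replicative helicase, fell by 0.91 and 0.88, and TIMELESS, a fork protection protein, by 0.68. For MCM5 the values were 184, 203, and 221 CPM in pTRE and 101, 110, and 113 CPM in WT.

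In deoxynucleotide synthesis 2 of 13 members rose and 2 fell (15.4% each, near the shares of all transcripts), and without WT replicate 2 these were 3 and 1. Beside RRM2, DCK, a kinase of the salvage pathway, rose by 1.57, from 74, 66.6, and 56 CPM to 247, 160, and 177 CPM. TK1, thymidine kinase, fell by 0.94, and SLC29A1, a nucleoside transporter, by 0.49. TYMS, thymidylate synthase, stood at 124, 128, and 132 CPM in pTRE and at 125, 100, and 133 CPM in WT, overlapping throughout. RRM1 was at 0.42, RRM2B at -0.09, DTYMK at -0.09, DUT at -0.47, DCTD at -0.15, DCTPP1 at -0.45, and CTPS1 at 0.07, none past the threshold.

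Mitotic and kinetochore genes moved less in size but nearly all 1 way. Of 73, 28 rose (38.4%), 0 fell, 65 had a positive log2 fold change, and the median was 0.40. Only NUSAP1, a microtubule-bundling protein of the spindle, was past 2-fold (1.17, from 146, 126, and 128 CPM to 315, 293, and 291 CPM). MKI67, the gene of the proliferation marker Ki-67, rose by 1.00, and ESPL1, the separase, by 0.94. Of 28 genes of SCF and APC/C ubiquitin ligases, 4 rose and 1 fell. CCNF, a cyclin that serves in an SCF ligase, and SKP2, which targets p27 for degradation, rose by 1.20 and 1.07, UBE2S, an enzyme of the APC/C, rose by 0.84, and CUL1, the scaffold of SCF, fell by 0.94.

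In the list of PRC2, DNA methylation, and chromatin copying, 4 of 17 rose and 1 fell. ATAD2 rose by 0.93, UHRF2 by 0.88, and EZH2, the PRC2 methyltransferase, by 0.81, while DNMT3B, a de novo DNA methyltransferase, fell by 0.53. Among 48 DNA damage and repair genes, 8 rose and 4 fell. FANCA, a Fanconi anemia gene, stood at 72.8, 78.4, and 82.3 CPM in pTRE and at 172, 297, and 151 CPM in WT (1.41, or 1.05 without WT replicate 2), and RMI2, a partner of the BLM helicase, fell by 1.49. Of 43 tested histone genes, 4 rose and 3 fell, and that pattern of symbols also took in the antisense gene H1FX-AS1, which rose by 1.92. HIST1H2AH was called on WT replicate 2, with 3.05 CPM there and 0.605 and 0.145 CPM in the other WT samples.

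TP73, the gene of p73, a transcription factor that can induce cell death, stood at 13.8, 17.1, and 20.9 CPM in pTRE and at 101, 107, and 85.3 CPM in WT. All WT samples were far above all pTRE samples, a 5.68-fold rise with a standard error of 0.14 on the log2 scale (edgeR adjusted p = 1.34e-08). PPP1R13B, the gene of ASPP1, a protein that promotes apoptosis, rose by 1.58, and MDM2, a ubiquitin ligase, by 0.68 (0.54 without WT replicate 2, adjusted p = 0.0146 from edgeR). PPP1R13L had a change of -0.56 and MDM4 of 0.38, neither past the threshold. No count is given over the longer list from which these 5 genes come. MDM4 was at 200 CPM in WT replicate 2, and at 99.6 and 101 CPM in the others.

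In the BCL2 family, 4 of 18 rose (22.2%, beside 14.8% of all transcripts) and 3 fell (16.7%, beside 11.4%). Both death-promoting and survival members were among those that rose. BCL2, the founding survival protein, stood at 5.58, 7.3, and 4.3 CPM in pTRE and at 44.9, 32.5, and 34 CPM in WT (log2 fold change 2.70). BCL2A1, another survival protein, rose by 3.84 from under 0.5 CPM, and HRK, a BH3-only death protein, by 2.22. BMF, also BH3-only, fell by 1.72, BCL2L13 by 0.89, and BOK by 0.84. Of 19 genes of caspases, the apoptosome, and their inhibitors, 3 rose (15.8%, near the share of all transcripts) and 1 fell (5.26%). APAF1, the core of the apoptosome, rose by 1.39 (20.9, 22.9, and 22.4 CPM to 55.5, 71.1, and 46.9 CPM), and BIRC2, an inhibitor of apoptosis, by 0.52, and CASP8, the initiator of receptor-driven death, fell by 0.64. Among 34 autophagy genes, 4 rose (11.8%) and 3 fell (8.82%), both below the shares of all transcripts. ULK2, a kinase that starts autophagy, was up by 1.88.

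Of 27 FGF ligands and receptors, 18 were tested. Of these, 8 rose (44.4%, beside 14.8% of all transcripts) and 4 fell (22.2%, beside 11.4%). A gene near 0 in pTRE, such as FGF4, was tested only if E2F1 lines held enough reads. Such a gene could hardly fall, which limits the comparison of rises with falls. Beside FGF4, FGF5 went from 5.2, 3.8, and 3.75 CPM to 44.6, 36.8, and 35.3 CPM (log2 fold change 3.20), and FGFR3, an FGF receptor, rose by 2.35. FGF21, a metabolic hormone, fell by 2.16, and FGF13 and FGF11, family members that stay inside the cell, by 1.07 and 1.00. Of 27 genes that ERK signaling induces, among them its feedback inhibitors and the immediate early genes, 11 rose (40.7%) and 1 fell (3.7%), the fall being that of CCND1. FOS, a subunit of the AP-1 factor, stood at 11.7, 6.76, and 5.77 CPM in pTRE and at 52.4, 33, and 22.9 CPM in WT, and FOSB and the ETS factor ETV1 rose by 1.92 and 1.41. The feedback inhibitors SPRY4 and DUSP7 rose by 1.35 and 1.23. In the EGF family, 6 of 15 rose (40%) and 3 fell (20.0%), with the receptor ERBB4 up by 3.37, the ligand NRG3 up by 1.88, and the receptors ERBB3 and ERBB2 down by 1.48 and 0.54.

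Other signaling families were mixed. Of 39 Wnt ligands, inhibitors, and receptors, 9 rose and 9 fell (23.1% each). WNT2 had 3 reads in pTRE and 164 in WT (ratio 62.4, 21.0 to 306), WNT9A and the inhibitor DKK2 rose by 2.79 and 2.92, and WNT6 and the receptor FZD2 fell by 2.00 and 1.66. Of 48 TGF-beta and BMP genes, 7 rose (14.6%) and 11 fell (22.9%). FST, the secreted activin antagonist follistatin, rose by 2.34, and ACVR1C, the receptor ALK7, by 3.07. TGFB2 went from 324, 292, and 297 CPM to 87.9, 89.5, and 114 CPM, and BMP5 fell by 1.84. In the Notch list 7 of 16 rose (43.8%) and 2 fell (12.5%), led by HEY1, a target gene of the pathway, at 4.3, 5.32, and 7.02 CPM in pTRE and 88, 47.8, and 62.5 CPM in WT (log2 fold change 3.58), while LFNG, a glycosyltransferase that modifies Notch, fell by 1.74. VEGF and PDGF genes gave 5 rises and 3 falls of 14, with PDGFRB, a receptor of mesenchymal cells, down by 1.88. Ephrins and their receptors gave 7 and 6 of 20, with EPHA4 up by 2.36 and EPHA5 down by 2.19. Semaphorins, plexins, netrins, and their receptors gave 11 and 9 of 43, with PLXNA2 up by 2.74 and SEMA3B down by 2.16. The Hippo list gave 1 rise and 2 falls of 12 (1 and 1 without WT replicate 2), with the DNA-binding factor TEAD4 up by 1.15.

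Genes of the extracellular matrix fell more often than they rose. Of 34 collagen chains tested, 12 fell (35.3%, beside 11.4% of all transcripts) and 5 rose, with a median log2 fold change of -0.36. COL11A1, a minor fibrillar chain, went from 122, 98.3, and 135 CPM to 18.3, 18.6, and 30 CPM. The rises included COL15A1 (2.76) and COL22A1 (1.39), and COL6A6 (2.97) rested on WT replicate 2, with an adjusted p of 0.0423 from edgeR without it. Of 47 matrix glycoproteins, proteases, and cross-linking enzymes, 20 fell (42.6%) and 3 rose, with a median of -0.50, and without WT replicate 2 17 fell and 5 rose. MMP2, a gelatinase, fell by 1.63 and TIMP3, a protease inhibitor held in the matrix, by 1.70. MMP10, the stromelysin 2, rose by 3.07. Mesenchymal factors and cytoskeletal genes gave 9 falls and 2 rises of 22. FAP, a protease of activated fibroblasts, fell by 2.72, S100A4 by 1.93, and MYL9, a myosin light chain, by 1.55. NT5E, the ectonucleotidase CD73, went the other way, with 1 read in pTRE and 83 in WT (ratio 94.7, 16.5 to 3790). Of 11 laminin chains, 4 fell and 1 rose. Integrins gave 6 rises and 4 falls of 24, with ITGB4, the hemidesmosome integrin, up by 2.73 and ITGA2, a collagen receptor, up by 1.93, and 1 of the falls was ITGBL1, which the pattern takes in and which is not an integrin.

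Cadherins and protocadherins gave 21 falls (28.4%) and 6 rises of 74, with a median of -0.54. They were divided by gene cluster, a split made after the values were seen and given with no test. The beta protocadherins had 11 falls (61.1%, beside 11.4% of all transcripts) and 0 rises of 18. The alpha ones had 5 falls (35.7%) and 0 rises of 14. The gamma ones had 2 falls (11.1%, near the share of all transcripts) and 0 rises of 18. The other cadherins and protocadherins had 3 falls and 6 rises of 24. PCDHB11 stood at 8.59, 6.5, and 7.35 CPM in pTRE and at 2.07, 2.01, and 2.64 CPM in WT. Alpha and gamma protocadherins share their last exons within a cluster, so how reads were divided among them is uncertain.

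HOX genes also differed by cluster, again described after the values were seen. In the HOXA cluster 8 of 11 tested genes rose (72.7%, beside 14.8% of all transcripts) and 0 fell. The median log2 fold change was 1.12. HOXA13, which patterns the distal limb, went from 2.56, 1.79, and 2.31 CPM to 18.8, 15.7, and 13.6 CPM, and HOXA3 and HOXA2 rose by 1.78 and 1.71. Over the HOXB, HOXC, and HOXD clusters the rises numbered 0 of 9, 0 of 8, and 1 of 6. The falls numbered 1, 3, and 2 (11.1%, 37.5%, and 33.3%, beside 11.4% of all transcripts). HOXD10 and HOXD11 fell by 1.94 and 1.85. Of 43 forkhead factors, 26 were tested, with 11 rises and 3 falls. Here too, a gene near 0 in pTRE, such as FOXJ1, could hardly fall. FOXJ1, the factor of motile cilia, rose by 4.92 from under 0.2 CPM, FOXO1, a target of insulin signaling, by 2.15, and FOXO6 and FOXO4 fell by 0.81 and 0.71. SOX factors gave 2 and 2 of 13. In the osteoblast list, 2 of 12 rose and 2 fell, with the bone growth factor BMP2 up by 1.64 and the matrix protein SPP1 (osteopontin) down by 1.46, beside COL1A1.

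**Figure D5:**
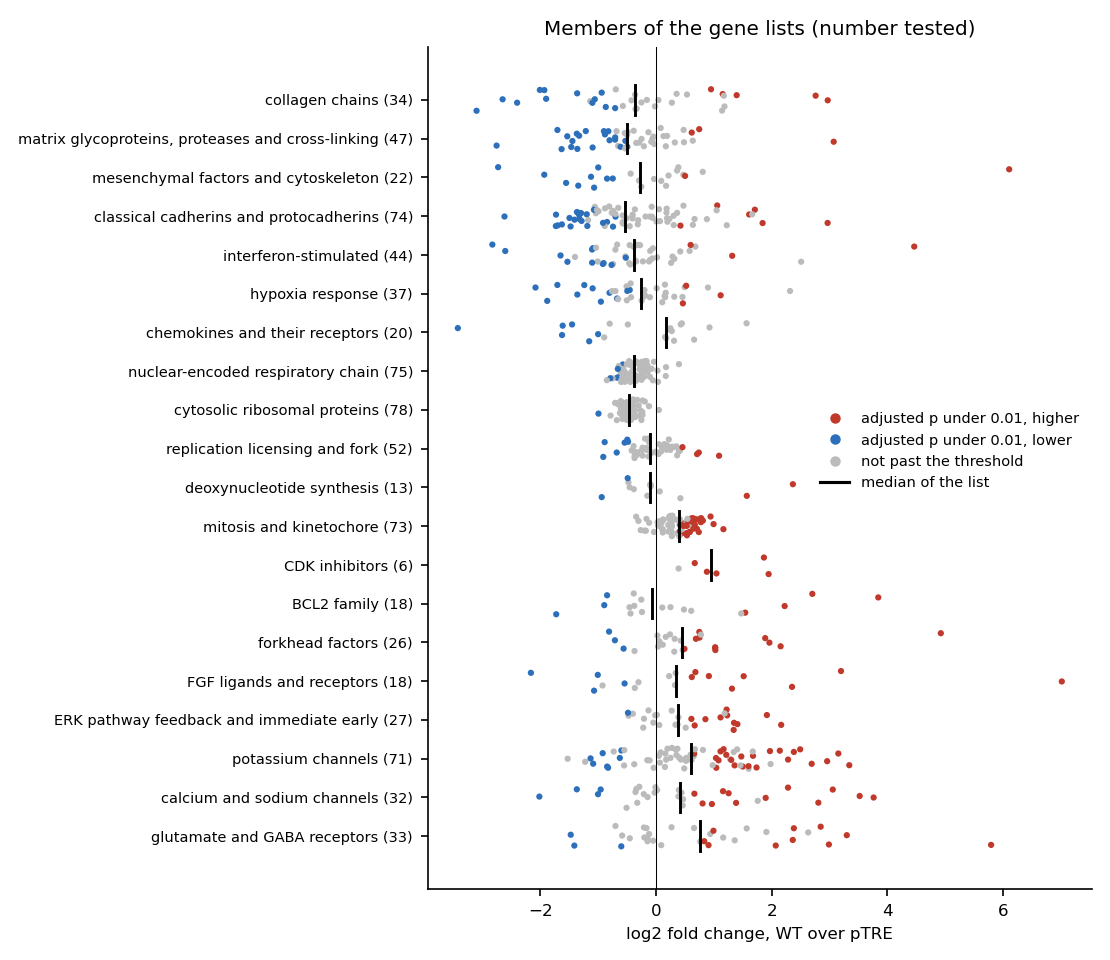
Each point is a tested member of a list, with its log2 fold change of WT over pTRE on the x axis, red or blue where the adjusted p-value was under 0.01, and a black bar at the list's median. Collagen, matrix, and cadherin members reach mostly to the left, CDK inhibitors, forkhead factors, and ion channels mostly to the right, and the respiratory chain and ribosomal proteins lie in a narrow band left of 0.

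Genes of the interferon response gave 11 falls (25%, beside 11.4% of all transcripts) and 3 rises (6.82%, beside 14.8%) of 44. Past 2-fold there were 7 falls, and 4 without WT replicate 2. BST2, tetherin, which holds viruses at the cell surface, went from 20.2, 18.6, and 30.5 CPM to 2.99, 2.17, and 5.85 CPM, and IFITM1 and IFIT1 fell by 2.83 and 1.65. Against these, CMPK2, a nucleotide kinase of the mitochondrion, rose 22.0-fold, from 0.661, 0.836, and 1.43 CPM to 26.9, 19.4, and 18.9 CPM, and the transcription factor IRF1 rose by 1.32. Chemokines and their receptors gave 6 falls (30.0%) and 0 rises of 20, ACKR3, CX3CL1, and CXCL14 among the falls. Even so, 11 of the 20 had a positive log2 fold change, and the median was 0.17 (-0.1 without WT replicate 2). Genes of the hypoxia response gave 11 falls (29.7%) and 3 rises (8.11%) of 37, and 8 falls without WT replicate 2. ALDOC, a glycolytic aldolase, fell by 2.08, DDIT4, an inhibitor of mTORC1, by 1.88, and CA12, a carbonic anhydrase, by 1.70, while EPAS1, the gene of HIF-2 alpha, rose by 1.12. NF-kB target genes gave 4 rises and 1 fall of 18, the fall being LIF (-1.48). IL1A, called higher, stood at 12.2 CPM in WT replicate 2 and at 1.78 and 1.37 CPM in the other WT samples, and its adjusted p was 0.024 from edgeR without that sample.

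Among the tested genes, ion channels and receptors of excitable cells rose more often than they fell. Of 71 potassium channel genes, 23 rose (32.4%, beside 14.8% of all transcripts) and 7 fell, and 22 of the rises were past 2-fold. KCNG3, a modulatory subunit, stood at 1.57, 2.01, and 1.69 CPM in pTRE and at 16, 19.3, and 12.1 CPM in WT. KCNB2, a delayed rectifier, and KCNK10, a two-pore channel, rose by 3.34 and 2.96, and KCNJ8 and KCNK3 fell by 1.13 and 1.08. Calcium and sodium channels gave 12 rises and 4 falls of 32, led by the calcium channel subunits CACNG5 (3.76), CACNA1D (3.52), and CACNA1E (3.06), with the sodium channel subunits SCN2B and SCN2A falling by 2.01 and 1.37. Glutamate and GABA receptors gave 10 and 3 of 33, with GRM2 up by 3.30, and GABRG1 and GRIN2A down by 1.47 and 1.41. Most of these levels were low, as the WT values of the named potassium, calcium, and sodium channel genes did not pass 20.6 CPM except for KCNN4, which fell by 0.92. The count filter ran over all lines, so a gene near 0 in pTRE was tested only if E2F1 lines held enough reads. Such a gene could hardly fall, so the filter itself favors rises in these lists. Without WT replicate 2, the median log2 fold change went from 0.6 to 0.48 for potassium channels. It went from 0.42 to 0.12 for calcium and sodium channels, and from 0.77 to 0.42 for glutamate and GABA receptors. The general neuronal markers did not rise. TUBB3, neuronal tubulin, fell by 1.67 and SNAP25, a vesicle fusion protein, by 0.61, and 0 of 5 neuronal markers rose. Without WT replicate 2, 1 of the 5 fell.

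Most metabolic and housekeeping lists held few transcripts past 2-fold. In the fatty acid and ceramide list, 11.5% were up-regulated and 3.85% down-regulated, beside 7.89% and 3.93% of all transcripts. For the unfolded protein and amino acid response these were 5.26% and 10.5%. Of 78 tested cytosolic ribosomal protein genes, 1 fell and 0 rose, but 77 had a negative log2 fold change, with a median of -0.46, which was -0.26 without WT replicate 2. RPL13A, the one past the threshold, had a value of -0.99. The nuclear-encoded respiratory chain gave 7 falls (9.33%, below the 11.4% of all transcripts) and 0 rises of 75, with 4 falls without WT replicate 2 and a median of -0.37 (-0.22 without that sample), and NDUFB5, a subunit of complex I, fell by 0.79. Glycolysis gave 6 falls and 2 rises of 27 (4 and 3 without WT replicate 2). Cholesterol synthesis gave 3 and 1 of 24 (1 and 2 without that sample), and fatty acid and ceramide synthesis 7 and 4 of 26 (5 and 4). Serine and one-carbon genes gave 4 and 1 of 24, and the proteasome 1 and 1 of 37 (0 and 2 without that sample). In the fatty acid list, beside FA2H, the elongase ELOVL7 and the ceramide synthase CERS1 rose by 1.36 and 1.23, and FADS3 fell by 1.07. Genes of the unfolded protein and amino acid response gave 5 falls and 2 rises of 19, but 2 falls and 3 rises without WT replicate 2, with the protein disulfide isomerase PDIA4 down by 1.38 and the chaperone partner DNAJB9 up by 1.09. Heat shock genes gave 3 falls and 1 rise of 14. Both cytosolic HSP90 genes passed the threshold in opposite directions, HSP90AA1 up by 0.67 and HSP90AB1 down by 0.67.

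Among genes of RNA splicing, 3 of 61 snRNP, Sm, and LSm genes rose and 0 fell (5 and 0 without WT replicate 2), with LSM11, a subunit of the histone pre-mRNA particle, up by 1.32. SR proteins and hnRNPs gave 5 rises and 3 falls of 39 (6 and 1 without that sample), the largest fall being that of the pseudogene HNRNPA1P33. Of 9 tested arginine methyltransferases and partners, the SND1 reader among them, 0 rose and 0 fell. In the MYC, MAX, and MXD network, MXD1, an antagonist of MYC, rose by 1.02 and none of the other 11 tested genes passed the threshold.

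Of large families named by symbol, ZNF genes gave 33 rises (6.99%) and 41 falls (8.69%) of 472, both below the 14.8% and 11.4% of all transcripts. Solute carriers gave 51 rises (18.0%) and 46 falls (16.3%) of 283, both above those shares. The transporter SLC16A6 was up by 4.23 (0.826, 1.44, and 0.992 CPM to 27.6, 21.6, and 12.7 CPM). Keratins gave 5 and 5 of 20, with KRT34 up by 2.66 and KRT16 down by 1.94. Cancer-testis genes gave 7 falls and 2 rises of 17, 1 of the rises being SSX2IP, which is a partner of a family member and not of the family. PRAME, an antigen of many tumors, fell by 0.99. Metallothioneins gave 1 fall of 3, MT1X (-1.35), and keratin-associated proteins 2 rises of 5.

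Long noncoding transcripts named LINC gave 26 rises and 33 falls of 212, and antisense transcripts 42 and 23 of 402. Of the antisense transcripts 34 were up-regulated past 2-fold with all samples and 25 without WT replicate 2, and DNMBP-AS1 stood at 9.64 CPM in that sample and at 0.534 and 0.398 CPM in the other WT samples. The library kit keeps strand, but whether the counting used it is not given in the sources used here, so reads of an antisense gene and its partner may not be told apart. ST3GAL6-AS1 rose in all 3 WT samples (4.31, 3.61, and 3.25 CPM, from 0.124, 0.266, and 0.441 CPM). By annotated type, 1145 of 14578 protein-coding genes were up-regulated (7.85%) and 597 down-regulated (4.10%), and among 858 long noncoding genes these were 79 (9.21%) and 33 (3.85%). Without WT replicate 2 as well, 62 and 26 of the noncoding ones were regulated.

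Markers of other cell types were compared over whole lists. Osteoblast and mesenchymal markers summed to 4960 to 5870 CPM in pTRE and 1810 to 2130 CPM in WT, with COL1A1 from 3280 to 4079 and from 541 to 611 CPM of these sums, and all 8 had a read in some sample. The 6 blood markers summed to 0.38 to 1.03 CPM in pTRE and 1.28 to 1.61 CPM in WT, and the 5 endothelial markers to 3.71 to 5.28 and 2.41 to 3.00 CPM. The 8 epithelial markers summed to 787 to 976 CPM and 374 to 593 CPM, with KRT8 down by 1.08, and the 5 neuronal markers to 132 to 166 CPM and 64.8 to 83.3 CPM. The part of other cells in the results was not tested. The 5 skeletal muscle markers summed to 12.3 to 15 CPM in 5 samples and to 29.5 CPM in WT replicate 2.

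An exact E2F site was about as frequent in promoters of up-regulated genes as in those of all tested genes. Of 1247 up-regulated genes with a promoter sequence, 52 held 1 of the 4 motifs within 250 bases before the start (4.17%, 95% Wilson interval 3.19 to 5.43), beside 648 of 15667 tested genes (4.14%, 3.84 to 4.46). Of 631 down-regulated genes, 11 did (1.74%, 0.976 to 3.09). Of all 1855 genes lower at the adjusted p-value alone, 61 did (3.29%, 2.57 to 4.2), an interval that overlaps that of all tested genes. The intervals cover counting error only. The windows of up-regulated genes had a median GC content of 70.4%, those of down-regulated genes 63.6%, and those of all tested genes 65.2%. Of the 15 largest rises, 2 held a motif, and of the 15 largest falls, 0. The search asks for exact letters in a short window, so it says nothing of sites with other letters or elsewhere.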

How the data were processed

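RNA-seq gene counts of 12 samples, 3 biological replicates of each of 4 U2OS Tet-On lines, were used. According to the methods of the study, mRNA was enriched by poly(A) selection and sequenced with a strand-keeping kit, and reads were trimmed with Trim Galore 0.4.3 and aligned to hg19 with STAR 2.5.1. The authors deposited raw counts, whole numbers of reads per gene symbol without normalization, with summary lines for uncounted reads, which were left out of library sizes and tests (reads outside genes were 23.6% to 29.6%, and 58.7% in WT replicate 2). Reads on genes were 11500537 to 28276244 in the 6 samples compared, and WT replicate 2, the shallowest, is the least precise.

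Counts were analyzed with edgeR 4.0.16 in R 4.3.3. Of 25369 genes, 16625 passed filterByExpr. Libraries were normalized by TMM, the quasi-likelihood test was run on 1 fit of all 12 samples with line as the only factor, and Benjamini-Hochberg adjustment covered all tested genes. The common dispersion was 0.0239. Regulated means an adjusted p-value under 0.01 and more than 2-fold. Standard errors come from the same model. The scripts were tested on simulated data.

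The comparison, gene lists, and tests were chosen with earlier results of these data known. Genes named are E2F1, the 15 largest rises and falls and the 8 most abundant of each among regulated genes (mean count 50 or more, no overlap of replicates, and still regulated without WT replicate 2), at most 3 rises and 3 falls of each list past the adjusted threshold, and the members of 6 short lists. Some items are not reported here. The transcripts of WT replicate 2, SPRY4, and DUSP7 were named after their values were seen. Positions and promoters come from GRCh37 with the GENCODE annotation, to which 15921 tested symbols were matched, 1046 of them by an older name. Wilson and exact intervals are at 95%.

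Alternatives were DESeq2 1.42.0, limma 3.58.1 (voom with sample weights), RLE normalization, other count filters, the 6 samples alone, the replicate number as a block, robust dispersion, glmTreat, an adjusted p-value under 0.05, and leaving out each sample. A fit of 5 samples without WT replicate 2 was chosen after seeing the data.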

Additional observations from a re-analysis of the deposited data

Results flagged for a closer look

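The change of some named genes differed between WT E2F1 and R109K in a direct test of the 2 lines (edgeR, adjusted p-value under 0.01 and more than 2-fold). Over all tested genes, 57 of 16625 differed so (0.343%), and 1 differed between WT and KK (0.00602%), LINC00346, with a log2 fold change of 1.90 of WT over KK (adjusted p = 0.00157 from edgeR, with 1415 genes at an unadjusted p under 0.05). Named genes were chosen by their values in WT, so their number among the 57 is no support for a difference. The log2 fold change of WT over R109K was 2.82 for RELN, 1.78 for SHISA7, 1.72 for FGF4, 1.46 for SLC16A6, 1.42 for CBLN2, 1.38 for EPHA4, 1.28 for IKZF1, 1.22 for FA2H, and 1.01 for ABCG2, genes that rose in WT. It was 3.15 for ETV1, with mean levels of 2.24 CPM in WT, 0.246 CPM in R109K, and 0.856 CPM in pTRE. Among genes that fell in WT, it was -3.29 for DEF6, -1.96 for EDN2, -1.28 for FGF13, -1.18 for PAGE2B, and -1.03 for FZD2. MAGEB17 rose in both lines and was lower in WT (-1.75). DEF6 had a mean of 5.14 CPM in R109K, 4.31 CPM in pTRE, and 0.538 CPM in WT.

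Reads outside annotated genes made up 58.7% of WT replicate 2, against at most 28.3% in the pTRE samples. Which sequences they came from was not analysed here.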

How the results depend on the processing

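With the fold change tested against 2-fold (glmTreat), 592 transcripts were regulated, 471 of them higher and 121 lower. Under the other alternatives the counts were within 1.5 times the main ones, and from 63.4% to 70.2% of regulated transcripts were up-regulated, against 79.6% with glmTreat. DESeq2 gave 1415 and 650, voom with sample weights 1299 and 635, and the fit of 5 samples without WT replicate 2, chosen after seeing the data, 1237 and 655. Leaving out 1 sample at a time gave 1150 to 1515 rises, 504 to 801 falls, and 1667 to 2316 regulated transcripts in all. E2F1 stayed past the threshold throughout. No call of a named gene turned its direction under any alternative. Of up to 376 named genes, those no longer past the threshold numbered 216 with glmTreat, 37 with the 6 samples alone, 49, 45, and 55 without pTRE replicates 1, 2, and 3, 47, 22, and 22 without WT replicates 1, 2, and 3, and at most 9 under each remaining alternative except the replicate block. The 5 transcripts that turned without WT replicate 2 are given with the results. Replicate numbers were checked for pairing. Deviations of WT and pTRE samples with the same number correlated at 0.00693, 0.115, and 0.241, and those with different numbers at -0.171 to 0.0855. Replicates 2 and 3 of both lines correlated best with their own number, and replicate 1 of each line did not. These few values do not settle whether samples were paired. The main fit treats them as unpaired. With the replicate number as a block, 1895 transcripts were regulated (1250 higher, 645 lower), E2F1 had the same call, and 18 named genes were no longer past the threshold. The depth of WT replicate 2 limits what can be said of transcripts with few reads.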
